A study of Mus musculus with 10 samples.

Results

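The genes described here are 6 members of the NADPH oxidase family, *Cybb*, *Cyba*, *Ncf1*, *Ncf4*, *Nox1* and *Nox4*, out of 25233 entries with a gene symbol in a table of 62322 entries. They were chosen by symbol alone, and each symbol matched 1 entry. *Cybb*, *Cyba*, *Ncf1* and *Ncf4* belong to the enzyme of phagocytes, and they were set against *Nox4*. RNA was sequenced from cells sorted as hepatic stellate cells (HSCs), the retinoid-storing cells of the liver, in 10 libraries of C57BL/6J mice. The cell names used here are those of the authors and rest on the sorting gates. The mice behind the 5 libraries of hypertrophied HSCs (hypHSCs) had eaten the CDAHFD, a high-fat diet deficient in choline that brings about steatohepatitis and fibrosis. Feeding lasted 13 weeks for hypHSC 1 and 2, whose mice were 19 weeks old, and 12 weeks for the other three, whose mice were 18 weeks old. The 5 libraries of quiescent HSCs (qHSCs) were from mice fed the standard diet, 36 weeks old for qHSC 1, 2 and 5 and 34 weeks old for the other two. The hypHSCs were sorted on green and the qHSCs on blue retinoid fluorescence, after digestions that differed, so that diet, age, digestion and sorting gate cannot be told apart in these libraries. The 5 hypHSC preparations were picked for RNA quality from more preparations than mice, and the 5 qHSC preparations were also selected. The labels do not say whether any hypHSC libraries share a mouse, so n counts preparations. The p-values measure the spread between preparations and could be too small if libraries share a mouse.

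NADPH oxidases are membrane enzymes that carry electrons from NADPH to oxygen and release superoxide or hydrogen peroxide. In phagocytes the catalytic subunit NOX2 (gp91phox, encoded by *Cybb*) and its partner p22phox (*Cyba*) sit in the membrane, and the enzyme stays silent until it is assembled. The cytosolic subunits p47phox (*Ncf1*) and p40phox (*Ncf4*) and a Rac GTPase are among the proteins that join them. *Nox1* and *Nox4* encode other catalytic subunits that also pair with p22phox. NOX4 needs no cytosolic subunit and is known for hydrogen peroxide production in stellate cells and myofibroblasts, while NOX2 in the liver is best known from Kupffer cells and recruited macrophages.

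The unit is the normalized count, the reads counted on a gene divided by 1 size factor per library. Between 30534719 and 43283589 reads fell on genes with a symbol in the hypHSC libraries, and between 35640104 and 47317028 in the qHSC libraries. A count of 3 reads, taken here as the floor of detection for counting error only, was worth 2.25 to 4.54 normalized counts. The share of mitochondrial reads was 2.21% to 12.8% in the hypHSC libraries and 1.25% to 1.61% in the qHSC libraries. Of the 10 listed markers of quiescent HSCs, all 10 were lower in hypHSCs, with a summed level of 7924 to 21715 normalized counts against 810326 to 1472121 in qHSCs. Among them *Gfap* had no read in hypHSC 4 and 5, and *Ngfr* had none in hypHSC 5. Of the 10 listed markers of activated HSCs and myofibroblasts, 9 were tested, and 2 were higher and 3 lower in hypHSCs.

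The sequences upstream of the transcription starts are shown so that the start regions of the phagocyte genes can be read beside that of *Nox4*. They come from the RefSeq promoter table of build GRCm38.p6, which held 5 of the 6 genes, and each 250-base stretch was found once in GRCm39 at the position given. *Ncf4* had no entry in that table. The stretches are printed 5′ to 3′ on the strand of the gene, from 250 bases before the start to the base before it. Capitals mark the motifs, which were searched on both strands. The CCAAT box was searched by the letters of its name. The motif of the TATA box was written TATAAA and that of the GC box was written GGGCGG. The PU.1-type motif, named after a transcription factor of myeloid cells, was written GAGGAA. No motif overlapped another in the stretches shown.
Cybb (chrX:9335564-9335813, minus strand): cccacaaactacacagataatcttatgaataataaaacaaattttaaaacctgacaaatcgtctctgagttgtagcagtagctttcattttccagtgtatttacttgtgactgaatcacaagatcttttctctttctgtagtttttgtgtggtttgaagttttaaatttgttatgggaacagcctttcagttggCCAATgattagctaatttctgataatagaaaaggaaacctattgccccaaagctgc
Cyba (chr8:123159680-123159929, minus strand): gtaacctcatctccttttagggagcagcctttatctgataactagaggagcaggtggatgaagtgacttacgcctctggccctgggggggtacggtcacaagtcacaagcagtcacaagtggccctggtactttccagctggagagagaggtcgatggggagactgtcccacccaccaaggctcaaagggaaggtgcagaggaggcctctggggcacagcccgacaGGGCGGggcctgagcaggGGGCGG
Ncf1 (chr5:134258480-134258729, minus strand): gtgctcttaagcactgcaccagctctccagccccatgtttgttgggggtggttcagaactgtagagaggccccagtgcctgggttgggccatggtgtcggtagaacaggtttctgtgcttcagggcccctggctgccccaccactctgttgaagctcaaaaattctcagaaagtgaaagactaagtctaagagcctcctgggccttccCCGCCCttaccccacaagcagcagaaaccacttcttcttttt
Nox4 (chr7:86895607-86895856, plus strand): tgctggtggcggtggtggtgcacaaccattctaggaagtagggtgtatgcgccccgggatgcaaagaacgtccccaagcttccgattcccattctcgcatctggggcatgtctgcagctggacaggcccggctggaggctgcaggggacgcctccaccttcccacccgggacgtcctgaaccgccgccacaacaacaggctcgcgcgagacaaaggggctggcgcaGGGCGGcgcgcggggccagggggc
The stretch of *Cybb* held 34.0% G and C and 1 CCAAT box, which began 56 bases before the start. That of *Cyba* held 60.0% G and C and 2 GC boxes, which began 24 and 6 bases before the start. That of *Ncf1* held 54.4% G and C and 1 GC box on the opposite strand, printed as CCGCCC. The stretch of *Nox4* was the richest of these in G and C, at 67.2%, with 1 GC box 24 bases before the start. The search ran over windows of 300 bases, the 250 above and the 50 after the start. In the part after the start, *Cybb* held 1 PU.1-type motif on the opposite strand, from base 10, in its first 30 transcribed bases.
Cybb, first 30 transcribed bases: tgttttcatTTCCTCatcagaagaagaagc
Among the 32544 windows of the table, 28.1% held the PU.1-type motif, 37.4% the CCAAT box, 13.6% the TATA box and 35.9% the GC box. A match is a description of the letters and not a binding site. The RefSeq window of *Nox1*, which held a PU.1-type motif 23 bases before its start, lay 110102 bases inside the deposited span of that gene.

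**Figure D1:**
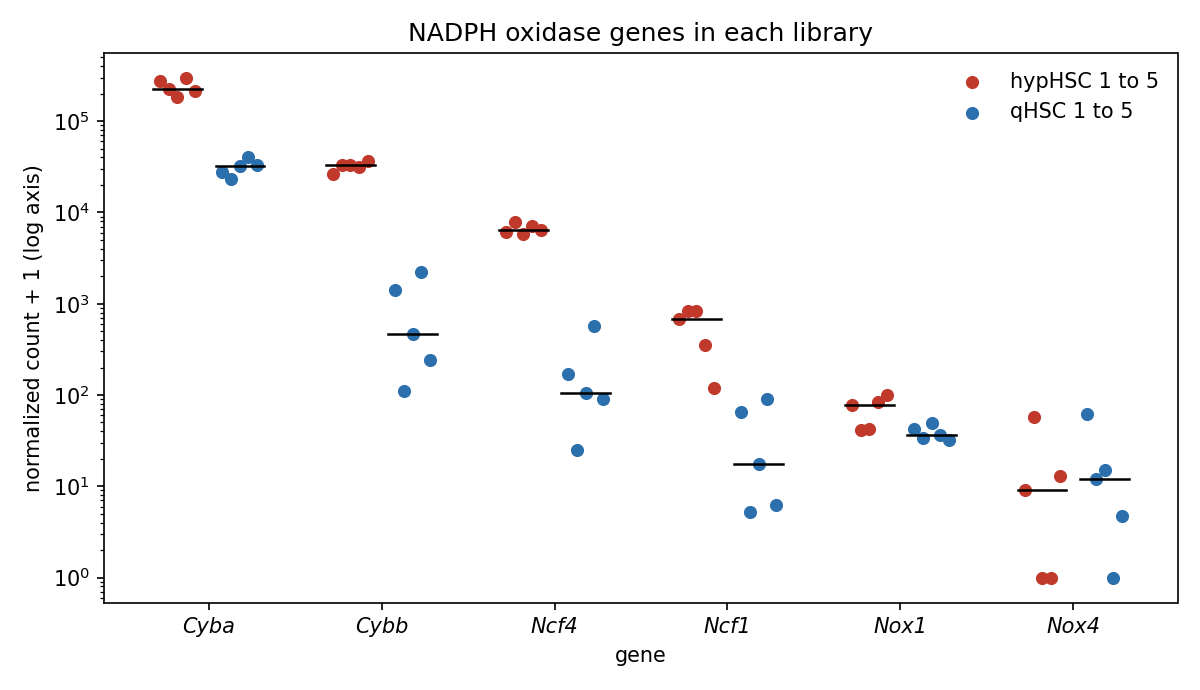
The plot shows the normalized count plus 1 (vertical log axis) of each of the 6 genes in the 5 hypHSC libraries (red) and the 5 qHSC libraries (blue), in the order of replicates 1 to 5 from left to right, with a bar at the median. For *Cyba*, *Cybb*, *Ncf4* and *Ncf1* every hypHSC library lies above every qHSC library, and for *Nox1* and *Nox4* the groups overlap.

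All 4 genes of the phagocyte enzyme were higher in hypHSCs than in qHSCs, while *Nox1* and *Nox4* did not pass the test. A differentially expressed gene (DEG) had a log2 fold change of 1 or more in either direction and a limma adjusted p of 0.05 or less, with fold changes taken on log2(normalized count + 1) and p adjusted over the 14630 genes tested. All 6 members passed the filter of 10 normalized counts in 5 libraries, *Nox4* with exactly 5. The background is large: 39.5% of the genes tested were DEGs, 17.8% as higher and 21.7% as lower in hypHSCs. The groups did not overlap for 4 of the 6 members, against 39.5% of the genes tested. Of all DEGs 45.0% were higher in hypHSCs, a share that was 32.4% with the libraries scaled to the same total and 17.4% with scaling on *Hprt*, *Pgk1* and *Actb*.

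*Cybb* (chrX:9301493-9335563, mm39), the catalytic subunit of the phagocyte enzyme, showed the largest change of the 6. Its normalized counts were 26364, 32893, 32932, 31496 and 36309 in hypHSC 1 to 5. In qHSC 1 to 5 they were 1409, 109.9, 468, 2199.97 and 239.8. The hypHSC libraries lay close together, within a 1.38-fold range, whereas the qHSC libraries spread over a 20.0-fold range with qHSC 4 and 1 the highest. The means were 31999 ± 3614 and 885 ± 894 (SD, n = 5 each), a ratio of 36.1. The log2 fold change was 5.93 (SE 0.68, 95% interval 4.43 to 7.43, limma adjusted p = 3.93e-05). The lead over *Ncf4* was small: with qHSC 5 left out, the log2 fold change was 5.65 for *Cybb* and 5.70 for *Ncf4*. An entry without a symbol lies inside the span of *Cybb* and had means of 505.6 ± 253.8 normalized counts in the hypHSC and 16.6 ± 26.2 in the qHSC libraries (SD, n = 5 each).

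*Cyba* (chr8:123151505-123159679), whose product p22phox anchors NOX1, NOX2 and NOX4 alike, was the most abundant of the 6 per exon length in both groups. It reached 273902, 226519, 185270.3, 296872 and 211276 normalized counts in hypHSC 1 to 5. In the qHSC libraries 1 to 5 it stood at 27487, 22986, 32202, 40685 and 33077. Both groups were tight, within 1.60-fold and 1.77-fold ranges, and did not overlap. The means of 238768 ± 45767 and 31287 ± 6628 (SD, n = 5 each) differed by a ratio of 7.63. The log2 fold change of 2.94 (SE 0.23, 95% interval 2.43 to 3.44, limma adjusted p = 2.50e-06) was smaller than that of *Cybb*, and their 95% intervals did not overlap.

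*Ncf4* (chr15:78129011-78146780), which encodes the p40phox subunit that binds phosphoinositides of the phagosome, followed *Cybb*. It gave 6027, 7781, 5751, 7032 and 6472 normalized counts in the hypHSC libraries 1 to 5. The 5 qHSC libraries gave 170.2, 23.9, 105, 571 and 89.2. As for *Cybb*, the hypHSC libraries were nearly level and qHSC 4 was the highest and qHSC 2 the lowest of the qHSC libraries. The means were 6613 ± 813 and 192 ± 218 (SD, n = 5 each), and the log2 fold change was 5.80 (SE 0.64, 95% interval 4.40 to 7.19, limma adjusted p = 2.74e-05).

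*Ncf1* (chr5:134248907-134258480), which encodes p47phox, the organiser that is phosphorylated to start assembly, was the least abundant of the phagocyte genes per exon length. Its values were 683, 834, 832, 355 and 118 normalized counts in hypHSC 1 to 5. They were 63.4, 4.26, 16.5, 89.8 and 5.25 in qHSC 1 to 5. Here the hypHSC libraries were not level: hypHSC 4 and hypHSC 5 lay below the other three, over a 7.07-fold range, and hypHSC 5 came close to qHSC 4 without overlapping it. The means were 564 ± 317 and 35.9 ± 38.7 (SD, n = 5 each). The log2 fold change was 4.50 (SE 0.88, 95% interval 2.56 to 6.44, limma adjusted p = 0.00151). In GENCODE vM39, 15.7% of its exon bases were shared with *Gtf2ird2*, and the reads were counted without strand, so that reads there cannot be assigned. *Gtf2ird2* itself had 0 to 41.6 normalized counts in hypHSCs and 25.7 to 54.3 in qHSCs, where *Ncf1* had 4.26 to 89.8.

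For these 4 genes the exact permutation test on the log2 values of 5 against 5 libraries gave p = 0.00794 each, the smallest value that the 252 arrangements allow. It follows whenever the groups do not overlap, as for 39.5% of the genes tested, and adds nothing to that. The call and its direction held in all 25 alternative analyses, with log2 fold changes of 4.99 to 7.10 for *Cybb*, 2.00 to 3.06 for *Cyba*, 4.86 to 6.73 for *Ncf4* and 3.60 to 5.78 for *Ncf1*. The upper ends for *Cybb*, *Ncf4* and *Ncf1* came from leaving out qHSC 1 and 4, an alternative chosen after the values were seen. Leaving out 1 library gave at most 6.45 for *Cybb*, 6.36 for *Ncf4* and 5.04 for *Ncf1*.

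*Nox1* (chrX:132987170-133122705), the colon-type catalytic subunit, was low in both groups. It had 76.8, 40.4, 41.6, 81.8 and 98.3 normalized counts in hypHSC 1 to 5. The qHSC libraries 1 to 5 had 41.6, 33.2, 48.0, 35.1 and 31.5. HypHSC 1, 4 and 5 exceeded every qHSC library and hypHSC 2 and 3 did not. The log2 fold change of 0.75 (SE 0.40, 95% interval −0.12 to 1.62, limma adjusted p = 0.141; exact permutation p = 0.0556) did not pass the test, and it was −0.17 when the libraries were scaled on *Hprt*, *Pgk1* and *Actb*. The deposited *Nox1* entry overlaps *Cstf2*, with which it shares 17.1% of its exon bases in GENCODE vM39, and *Cstf2* held 86.0 to 140.1 normalized counts per library. The spans of *Arl13a*, *Xkrx* and 1 entry without a symbol also overlap it, each at 17.5 normalized counts or fewer in every library.

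*Nox4* (chr7:86895854-87047914), the catalytic subunit known from stellate cells, was near the floor in these libraries. Its normalized counts were 8.09, 55.9, 0, 0 and 12.1 in hypHSC 1 to 5. They were 61.5, 11.1, 14.2, 0 and 3.75 in qHSC 1 to 5. The recovered reads behind them were 6, 54, 0, 0 and 8 in hypHSCs and 68, 13, 18, 0 and 5 in qHSCs. The groups overlapped over nearly their whole range, with 1 high library in each (hypHSC 2 and qHSC 1) and 3 libraries without a read. The log2 fold change was −0.60 (SE 1.36, 95% interval −3.58 to 2.38, limma adjusted p = 0.739; exact permutation p = 0.643). The interval covers a fall as well as a rise, so a difference in *Nox4* was not detectable in these libraries. Leaving out hypHSC 3, hypHSC 4 or qHSC 1 turned its sign, to 0.035, 0.035 and 0.10.

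**Figure D2:**
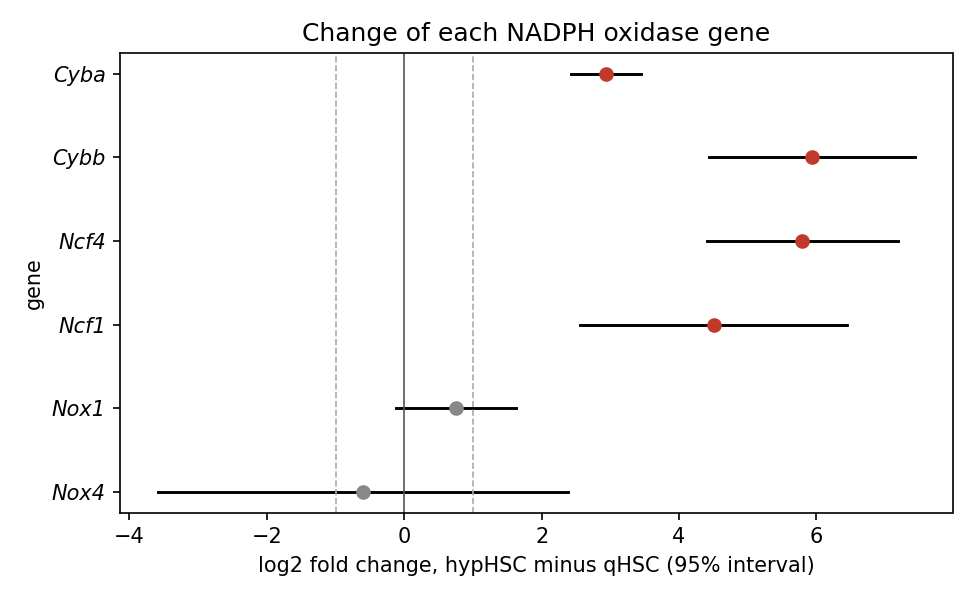
The plot shows the log2 fold change of each gene (horizontal axis, hypHSC minus qHSC) with its 95% interval from limma, in red where the gene was a DEG and in grey where it was not, with dashed lines at −1 and 1. The intervals of *Cyba*, *Cybb*, *Ncf4* and *Ncf1* lie above 2, while those of *Nox1* and *Nox4* include 0.

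Set against *Nox4* within each library, the phagocyte genes had larger differences in hypHSCs, but none passed the test after adjustment. *Nox4* had no read in hypHSC 3, hypHSC 4 and qHSC 4, so the differences of these libraries, and the sizes given here, depend on the pseudocount of 1. The log2 difference between *Cybb* and *Nox4* was 12.41 ± 2.52 in hypHSCs and 5.88 ± 3.05 in qHSCs (SD, n = 5 each), an increase of 6.53 (exact permutation p = 0.0159). The increase was 6.40 for *Ncf4* (exact permutation p = 0.0238), 5.10 for *Ncf1* (exact permutation p = 0.0317) and 3.54 for *Cyba* (exact permutation p = 0.0714). For *Nox1* against *Nox4* it was 1.35 (exact permutation p = 0.381). After Benjamini-Hochberg adjustment over these 5 comparisons the exact permutation p was 0.0529 for *Cybb*, *Ncf4* and *Ncf1* and 0.0893 for *Cyba*. The groups overlapped in each of the 5 differences.

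Levels can be set side by side between genes only per length, as reads per kilobase of annotated exon and per 1000000 reads on genes with a symbol (RPKM). On this scale the order in hypHSCs was *Cyba* at 2465 ± 420.1, *Cybb* at 131.6 ± 17.9, *Ncf4* at 68.3 ± 8.98, *Ncf1* at 3.85 ± 2.37, *Nox1* at 0.478 ± 0.143 and *Nox4* at 0.0430 ± 0.0678 (SD, n = 5 each). In qHSCs *Cyba* stood at 414.8 ± 90.7, *Cybb* at 4.70 ± 4.74, *Ncf4* at 2.55 ± 2.91, *Nox1* at 0.352 ± 0.0806, *Ncf1* at 0.303 ± 0.325 and *Nox4* at 0.0664 ± 0.0914. In hypHSCs no neighbours in this order overlapped in range, although the lowest *Ncf1* value, 0.674, came close to the highest *Nox1* value, 0.622. In qHSCs every gene below *Cyba* overlapped in range with its neighbour in the order. The exon length counts the exons of all annotated isoforms, so genes with long alternative exons are set lower. *Cyba* exceeded *Cybb* 14.2 to 26.2 times per kilobase in hypHSCs and 46.7 to 528 times in qHSCs. These ratios did not overlap between the groups.

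The listed core macrophage markers, like the phagocyte genes, were higher in hypHSCs. Of the 12 listed core macrophage markers, among them *Adgre1*, *Csf1r*, *Cd68* and *Lyz2*, 12 were higher in hypHSCs. Over all genes tested, 17.8% were higher and 21.7% lower. For *Adgre1* and *Csf1r* the groups overlapped, because hypHSC 5 lay below qHSC 4. The summed level of the 12 markers was 1172072 to 1450618 normalized counts in hypHSCs and 5744 to 93729 in qHSCs. Apart from *Itgam*, which had no read in 1 qHSC library, none of the 12 was at 0 in any library. In bulk RNA, more cells of a type and more RNA per cell cannot be told apart. Of the 6 resident Kupffer cell markers 3 were higher, and their sums overlapped, at 18347 to 34538 in hypHSCs and 1270.4 to 44861 in qHSCs. Of the 10 neutrophil markers 5 were tested and 4 were higher (*S100a8*, *S100a9*, *Retnlg* and *Csf3r*). The sums of the list were 1907 to 8142 against 14.2 to 415. The neutrophil gene *Ly6g* was not tested and had no read in 4 of the 5 hypHSC and 3 of the 5 qHSC libraries. Among the other lists, 1 of 2 tested B cell markers was higher, 0 of 2 tested T and NK cell markers were called, 1 of 6 tested endothelial markers was higher and 1 lower, and 1 of 8 hepatocyte markers was lower. The NK cell receptor *Klrb1c* did not pass the filter and was not tested, with 8.32 to 138.7 normalized counts in hypHSCs and 0 to 0.75 in qHSCs, without overlap. The part of such cells in the change of the phagocyte genes was not tested.

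**Figure D3:**
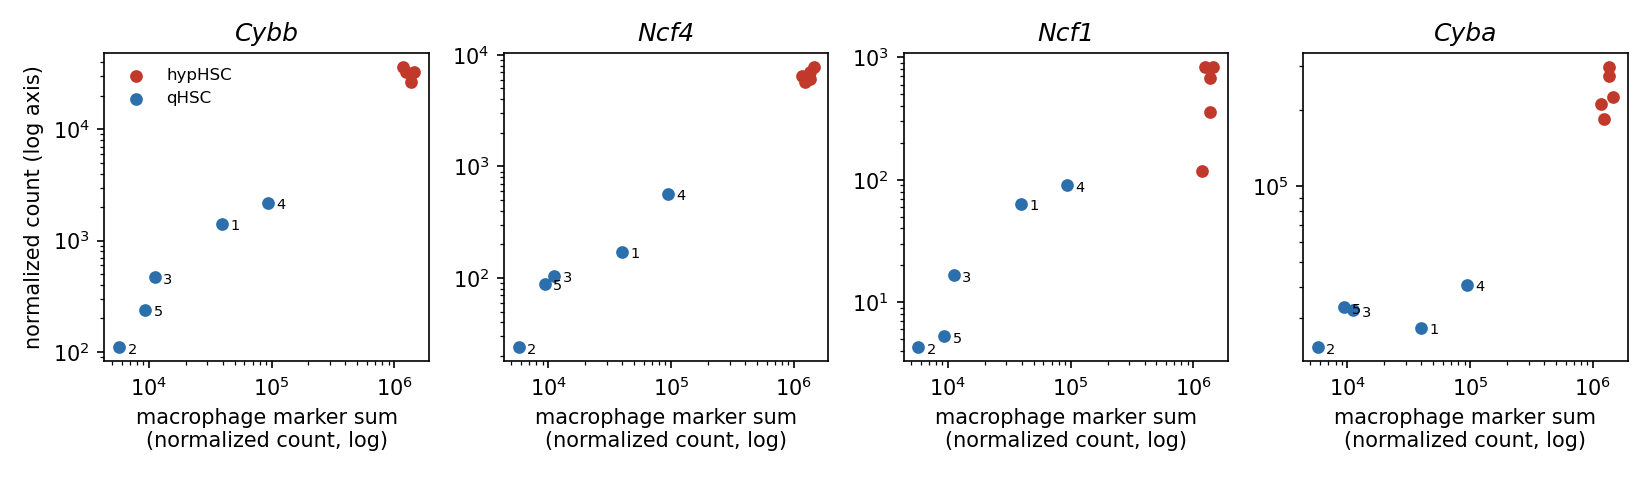
Each panel plots the normalized count of 1 gene (vertical log axis) against the summed normalized count of the 12 core macrophage markers (horizontal log axis) in the 5 hypHSC (red) and 5 qHSC (blue, numbered) libraries. For *Cybb*, *Ncf4* and *Ncf1* the qHSC libraries stand in the same order as the marker sum, 4, 1, 3, 5 and 2 from high to low, and for *Cyba* they do not. The last places of *Ncf1* rest on 7 and 5 reads.

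Within the qHSC libraries, *Cybb*, *Ncf1*, *Ncf4* and *Rac2* stood in 1 order from high to low, qHSC 4, 1, 3, 5 and 2, which was also the order of the summed core macrophage markers. For *Ncf1* the last places rest on 7 reads in qHSC 5 and 5 in qHSC 2, too few to tell these libraries apart. The order of *Cyba* was 4, 5, 3, 1 and 2, and that of *Nox4* was 1, 3, 2, 5 and 4. Per 1000 counts of the marker sum, *Cybb* had 19.4 to 31.0 counts in hypHSCs and 19.1 to 41.9 in qHSCs, so the ratio overlapped between groups whose *Cybb* levels did not. The ratio of *Ncf4* overlapped too, at 4.43 to 5.52 against 4.15 to 9.54. That of *Ncf1* was 0.101 to 0.671 in hypHSCs, with a median of 0.502, and 0.562 to 1.60 in qHSCs, with a median of 0.959, and overlapped in part. For *Cyba* the ratio was 149.5 to 218.7 in hypHSCs and 434 to 4002 in qHSCs, without overlap and higher in qHSCs. *Lyz2* made up 62.6% to 65.5% of the marker sum in hypHSCs and 22.0% to 35.9% in qHSCs, and it enters each of these ratios. Per 1000 *Lyz2* counts alone, *Cybb* had 29.6 to 49.0 counts in hypHSCs and 71.0 to 116.7 in qHSCs, without overlap and higher in qHSCs, so the overlap of the *Cybb* ratio depends on the markers in the sum. With qHSC 1 and 4 left out, the log2 fold change was 7.10 for *Cybb*, 6.73 for *Ncf4*, 5.78 for *Ncf1* and 3.02 for *Cyba*. These are the qHSC libraries richest in macrophage markers, and the alternative was chosen after the values were seen. They were also the highest qHSC libraries in *Cybb*, *Ncf4* and *Ncf1*, so leaving them out had to raise the change of these genes.

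*Ncf1* varied more than *Ncf4* among the hypHSCs, over a 7.07-fold range against a 1.35-fold range. Per 1000 *Ncf4* counts there were 113.3, 107.2, 144.6, 50.4 and 18.2 *Ncf1* counts in hypHSC 1 to 5 and 372, 178.5, 157.9, 157.4 and 58.9 in qHSC 1 to 5. HypHSC 4 and 5 were the lowest of the hypHSCs in this ratio, and the groups overlapped. These libraries also differed as a whole: 14949 and 14028 genes with a symbol had a read there, against 15821 to 16634 in hypHSC 1 to 3. The part of this in the lower *Ncf1* was not tested. *Rac2* stood in the same order as *Ncf1* in the hypHSCs, 2, 3, 1, 4 and 5, whereas *Cybb* was highest in hypHSC 5. The core macrophage markers did not share 1 order among the hypHSCs. Their sum stood in the order 2, 1, 4, 3 and 5 from high to low. The order was 5, 3, 2, 4 and 1 for *Cybb* and 2, 4, 5, 1 and 3 for *Ncf4*, so neither followed the sum in hypHSCs. HypHSC 4 and 5 were the 2 lowest hypHSC libraries for 5 of the 12 markers (*Adgre1*, *Csf1r*, *Fcgr1*, *Tyrobp* and *Itgam*) and the 2 highest for *Cd68* and *Ptprc*. The receptor *Csf1r* had 14052, 24497, 24120.2, 5275 and 1833 normalized counts in hypHSC 1 to 5, while the lysosomal protein *Cd68* had 115258, 160725, 133590.4, 196974 and 179811.

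**Figure D4:**
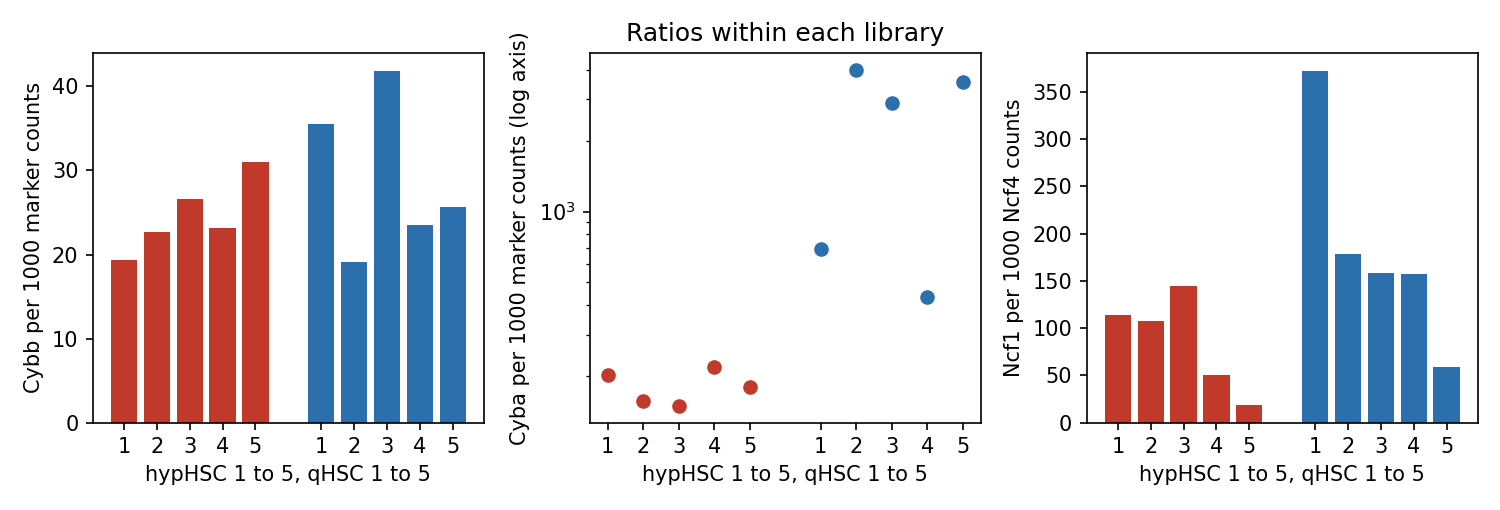
The panels show, for hypHSC 1 to 5 (red) and qHSC 1 to 5 (blue), *Cybb* counts per 1000 core macrophage marker counts (bars), *Cyba* counts per 1000 such counts (points, log axis) and *Ncf1* counts per 1000 *Ncf4* counts (bars). The first ratio overlaps between the groups, the *Cyba* ratio is higher in every qHSC library, and the *Ncf1* ratio is lowest in library 5 of each group. The ratio of qHSC 5 rests on 7 *Ncf1* reads.

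The genes whose profile over the 10 libraries was most like that of *Cybb* included several known from leukocytes. By the root mean square difference of the log2 profiles, each centred on its own mean, the 5 nearest of 10792 candidates (tested genes averaging 100 normalized counts or more) were *Cd53* at 0.31, *Clec12a* at 0.32, *Bcl2a1b* at 0.33, *Cyp4f18* at 0.33 and *Ms4a6d* at 0.35. *Cd53* is a tetraspanin of leukocytes and *Clec12a* an inhibitory lectin receptor of myeloid cells. *Bcl2a1b* has near-identical paralogs that can share its reads, so its value is uncertain. *Nox4* had no close match among these candidates. Its nearest genes were *Svip* at 1.61, *Itga11* at 1.65, *Bmf* at 1.67, *Echdc2* at 1.69 and *Zfp934* at 1.72. Because *Nox4* was near the floor and the candidates averaged 100 or more, its profile could hardly lie close to theirs. Its distances are therefore not comparable with those of *Cybb*. These distances describe 10 libraries in 2 separate groups, and the points share depth and size factors.

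The partners of the enzyme were described from 48 further genes in 5 lists, of which 39 were tested. Of these, 20 were higher and 5 lower in hypHSCs and 14 were not called. Over all genes tested, 17.8% were higher and 21.7% lower. The median log2 fold change of the partners was 1.25 against −0.20 over all genes tested. With scaling on *Hprt*, *Pgk1* and *Actb* 15 partners were higher and 9 lower. The groups did not overlap for 21 of the 39, against 39.5% of all genes tested.

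Of the list of GTPases, 4 of 4 were higher, with a median log2 fold change of 1.54, and 2 of 4 with the libraries scaled to the same total. *Rac2*, the Rac GTPase of blood cells, had 5901, 6661, 6308, 3656 and 895 against 453, 44.3, 123, 934 and 93.7. Its groups overlapped, because hypHSC 5 lay below qHSC 4, and its log2 fold change was 4.36 (SE 0.82, limma adjusted p = 0.00119). *Rac1*, its widely expressed relative, rose by 1.25 (SE 0.22) on the log2 scale, without overlap of the groups. The related small GTPases *Rap1a* and *Rap1b* rose by 1.15 (SE 0.30) and 1.82 (SE 0.39), also without overlap. With scaling on *Hprt*, *Pgk1* and *Actb* the log2 fold changes of *Rac1*, *Rap1a* and *Rap1b* were 0.31, 0.22 and 0.88 and none was called, while *Rac2* still was. *Rap1a* was not called without hypHSC 5, at a log2 fold change of 0.90.

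Of the 8 genes for assembly and turnover of the membrane core, 3 were higher and 5 were not called, with a median of 0.37. The 3 were *Coro1a*, an actin regulator that binds the cytosolic subunits, *Nrros*, a leucine-rich repeat protein that turns NOX2 over, and *Hvcn1*, the proton channel that balances the charge the enzyme moves. Their log2 fold changes were 4.67 (SE 0.80), 4.55 (SE 0.87) and 3.81 (SE 0.54). Among the hypHSCs each was lowest in hypHSC 5 and next lowest in hypHSC 4. The groups of *Nrros* overlapped, because hypHSC 5 at 1798 normalized counts lay below qHSC 4 at 1881. *Cybc1*, the chaperone that stabilises NOX2 and p22phox, was not called, with 1829 ± 773 normalized counts in the hypHSC and 2099 ± 259 in the qHSC libraries (SD, n = 5 each) and a log2 fold change of −0.31 (SE 0.29), which became −1.25 and a call with scaling on *Hprt*, *Pgk1* and *Actb*. Its groups overlapped.

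The other NOX and DUOX enzymes gave almost no reads. Of 9 listed genes 6 were too low to be tested, and *Nox3*, *Duox1*, *Duoxa1* and *Duoxa2* had no read in any library. *Noxo1* and *Noxa1*, the organiser and activator that NOX1 uses in place of those of the phagocyte enzyme, had means of 28.9 ± 17.0 and 11.6 ± 21.6 normalized counts in hypHSCs and 43.6 ± 25.5 and 2.47 ± 3.47 in qHSCs (SD, n = 5 each). *Poldip2*, a protein that binds p22phox and raises NOX4 activity, was the 1 gene of this list called, and it fell by 1.49 on the log2 scale (SE 0.23, limma adjusted p = 0.000322). It had 287, 385, 342, 393 and 219 normalized counts in hypHSC 1 to 5 and 781, 786, 1110.1, 732 and 1142 in qHSC 1 to 5, without overlap.

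Among the 19 genes listed as switching the enzyme on, 12 were higher, 3 lower and 4 not called, with a median log2 fold change of 2.46. They are kinases and exchange factors, apart from the phospholipase *Pla2g4a*, which was among the higher genes at 1.44 (SE 0.38). The largest change was that of *Prkcb*, a protein kinase C that phosphorylates p47phox, at 488, 562, 593, 525 and 420.5 normalized counts in hypHSC 1 to 5 and 3.62, 0, 0, 28.2 and 5.99 in qHSC 1 to 5. Its log2 fold change of 7.03 (SE 0.85, limma adjusted p = 5.33e-05) rests on a qHSC group at or near the floor. *Vav3*, a Rac exchange factor, *Pik3cg*, a phosphoinositide kinase of leukocytes, and *Syk*, a kinase downstream of Fc receptors, rose by 6.15 (SE 0.80), 5.92 (SE 1.14) and 5.82 (SE 0.92) on the log2 scale. Members of 1 family went both ways: *Prkcb* and *Prkcd* were higher and *Prkcz* lower, *Vav1* and *Vav3* higher and *Vav2* lower, and *Prex1* higher and *Prex2* lower. The log2 fold changes of the lower members were −4.18 (SE 0.80) for *Prkcz*, −3.18 (SE 1.15) for *Vav2* and −2.48 (SE 0.26) for *Prex2*, and these families were picked out after their values were seen. The call of *Vav2* was lost with DESeq2 and edgeR, at −1.87 and −1.81, and with any 1 qHSC library or hypHSC 4 left out.

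Of the 8 genes that remove or use the products of the enzyme, 5 were tested. *Gpx1*, the glutathione peroxidase that removes hydrogen peroxide, rose from 13895 ± 6912 normalized counts in qHSCs to 78892 ± 6588 in hypHSCs (SD, n = 5 each), a log2 fold change of 2.63 (SE 0.29, limma adjusted p = 2.75e-05). *Sod3*, the secreted superoxide dismutase, had 804, 1578, 983, 1289 and 99.8 normalized counts in hypHSC 1 to 5 and 100616, 134409, 81027, 68902 and 161228 in qHSC 1 to 5. It fell by 7.22 on the log2 scale (SE 0.64, limma adjusted p = 6.35e-06), and hypHSC 5 was the lowest library. *Sod1* and *Cat*, the cytosolic dismutase and catalase, had log2 fold changes of 0.70 (SE 0.23) and 0.75 (SE 0.29), below the fold threshold of 1, and −0.24 and −0.19 with scaling on *Hprt*, *Pgk1* and *Actb*. *Mpo* and *Lpo*, the peroxidases that use hydrogen peroxide, were too low to be tested.

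**Figure D5:**
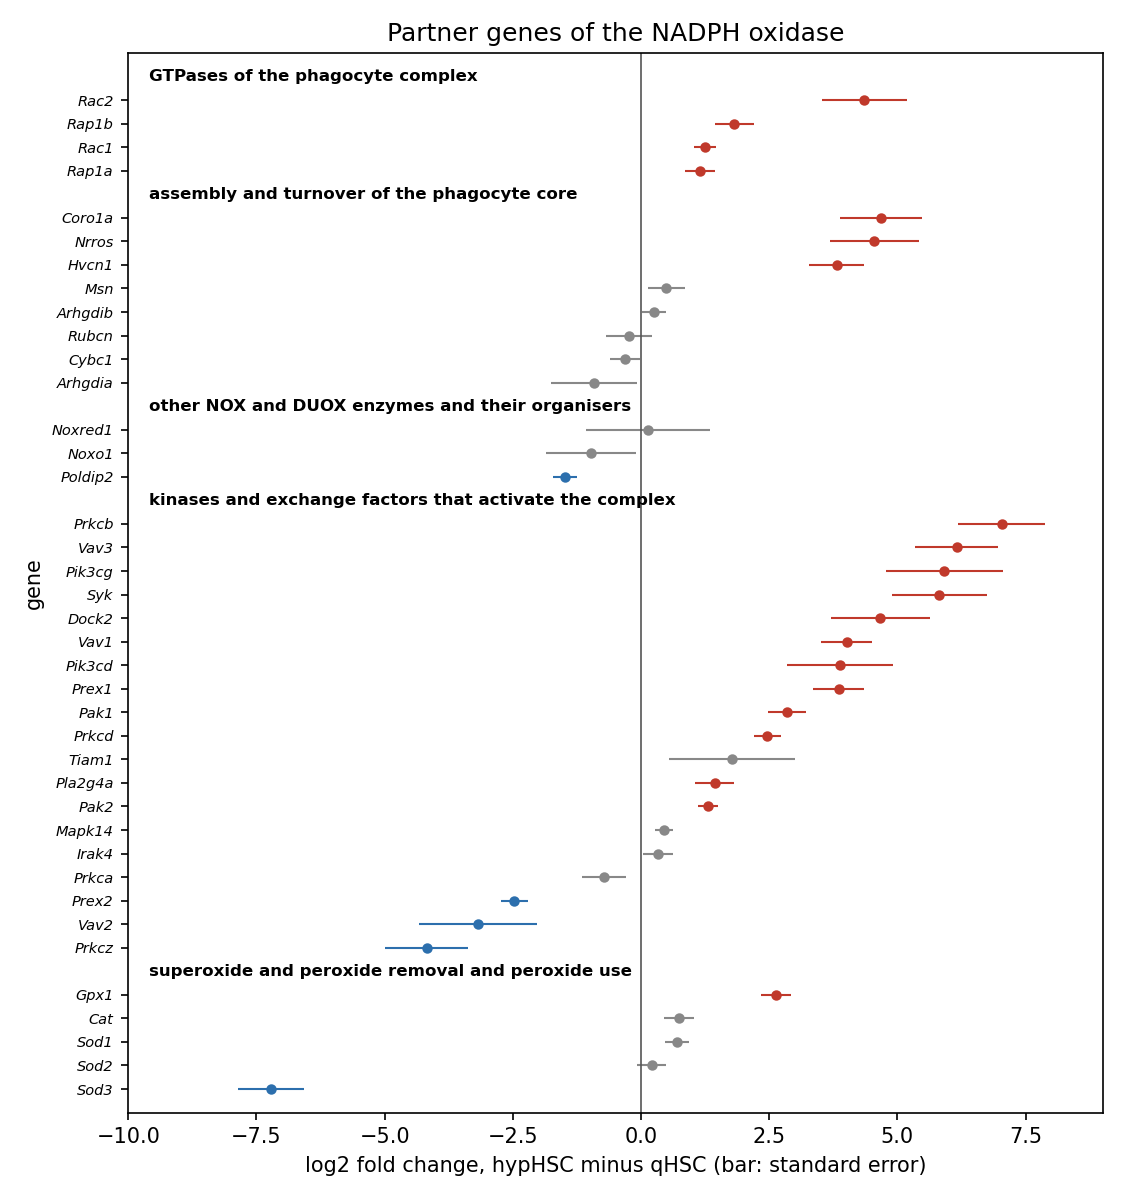
The plot shows the log2 fold change (horizontal axis, hypHSC minus qHSC) of the 39 tested partner genes with its standard error, by list, in red for DEGs higher in hypHSCs, blue for DEGs lower in hypHSCs and grey for genes not called. The 4 GTPases all lie to the right, and *Sod3* is the lowest of the 39.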

How the data were processed

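RNA was reverse-transcribed from its poly(A) tail, amplified and sequenced at both ends without keeping the strand. According to the submitters' processing notes the authors used mm39, STAR, featureCounts (Subread 1.5.0) and DESeq2, and FastQC 0.11.2, Picard 1.119 and SAMtools 1.0 for quality control. As deposited, each value is a signal: the authors' read count of a gene over the DESeq2 size factor of the library. All 10 columns matched a library, and 0 other columns of per-sample values were found. Each column multiplied by its size factor came out as whole reads in 100% of values, within 0.02 normalized counts. These reads served for depth, RPKM, DESeq2 and edgeR. The 37089 entries without a symbol were left out of the tests.

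Genes that reached 10 normalized counts in 5 or more of the 10 libraries were compared on log2(normalized count + 1) with limma (version 3.58.1, eBayes with an intensity trend, R 4.3.3), with Benjamini-Hochberg adjustment over all genes tested. Exact two-sided permutation tests over libraries used the same log2 values. The fit was tested on simulated data. Alternatives changed the pseudocount, the filter, the scaling, the tool (DESeq2 1.42.0, edgeR 4.0.16), the libraries or the design with the replicate number as a block. The members, gene lists and tests were chosen with earlier results of these data known. All members were named, and in each partner list up to 4 called genes with the largest change, while other partners named were picked for their role after the values were seen. A gene of the partner lists is not reported here.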

Additional observations from a re-analysis of the deposited data

Results flagged for a closer look

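Among 40 groups of 5 libraries checked for a library that stood apart (a gap to the nearest library of more than 0.71 of the range of the group), 2 were found, and chance gives about 1 in 20. *Hvcn1* was 467 normalized counts in qHSC 1, against 325 in the next highest qHSC library. *Sod3* was 99.8 normalized counts in hypHSC 5, against 804 in the next lowest hypHSC library.

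A signal was also found in an entry without a symbol that the comparisons did not use. It lies inside the span of *Cybb*, at chrX:9313558-9315847, and its mean was 505.6 normalized counts in hypHSCs and 16.6 in qHSCs. Its level was 0.854% to 2.53% of that of *Cybb* in the hypHSC libraries and 0.385% to 4.65% in the qHSC libraries.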

How the results depend on the processing

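*Cybb*, *Cyba*, *Ncf1* and *Ncf4* stayed DEGs, higher in hypHSCs, in each of 25 alternatives. Scaling moved the median log2 fold change of all genes tested from −0.20 to −0.54 with the same total, −1.12 with *Hprt*, *Pgk1* and *Actb*, −0.08 with the same upper quartile, −0.05 with DESeq2 and −0.00147 with edgeR. Relative to that median, the change under these scalings and tools was 5.21 to 6.13 for *Cybb*, 2.98 to 3.14 for *Cyba*, 3.99 to 4.72 for *Ncf1*, 5.14 to 5.99 for *Ncf4*, 0.88 to 0.96 for *Nox1* and −0.45 to −0.14 for *Nox4*. *Nox1* turned to −0.17 with scaling on *Hprt*, *Pgk1* and *Actb*, and was not called in any alternative. *Nox4* ranged from −1.42 to 0.10 over the libraries left out, with 0.0350 without hypHSC 3 or hypHSC 4 and 0.10 without qHSC 1. It was −1.91 with the hypHSCs of 12 weeks only, and it was not called there or in the other alternatives. A mean of at least 100 normalized counts left *Nox1* and *Nox4* untested.

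DEGs over all genes numbered 5779, and 9291 with entries without a symbol included, where 24320 entries were tested. Leaving out 1 library gave 5241 to 5914. Partner genes called ranged from 22 to 26 in all alternatives, and scaling on *Hprt*, *Pgk1* and *Actb* gave 15 higher and 9 lower.

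Replicate numbers pair the samples only by name: deviations of same-numbered libraries correlated at 0.00815 to 0.129, and only hypHSC 5 correlated best with its own number. With the replicate block, 5786 genes were DEGs and *Cybb* kept a log2 fold change of 5.93 (limma adjusted p = 0.000293). *Nox4* had 68 reads or fewer in every library, and hypHSC 3 and 4 had none where hypHSC 2 had 54.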
